A study of Mus musculus with 4 samples.

Results

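Genes of the cell cycle were described in hepatic CD4+ T cell preparations from mice with diet-induced steatohepatitis. The set holds 40 of the 32285 genes counted, taken as the rows of 40 listed symbols in both count tables. S phase is represented by 16 genes (*Mcm2* to *Mcm7*, *Pcna*, *Tyms*, *Rrm1*, *Rrm2*, *Gins2*, *Cdc6*, *Uhrf1*, *Dut*, *Tk1* and *Pclaf*). G2 phase and mitosis (G2/M) are represented by 22 genes (*Mki67*, *Top2a*, *Birc5*, *Cdk1*, *Hmgb2*, *Ccna2*, *Ccnb1*, *Ccnb2*, *Ube2c*, *Cenpa*, *Cenpe*, *Cenpf*, *Nusap1*, *Tpx2*, *Aurka*, *Aurkb*, *Bub1*, *Plk1*, *Cdc20*, *Kif11*, *Kif23* and *Ckap2l*). The other 2, *Stmn1* and *Tubb5*, which encode a microtubule regulator and a tubulin, belong to no single phase.

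WT mice and dKO mice (*Nr4a1* fl/fl *Nr4a2* fl/fl with *Cd4Cre*, so that both nuclear receptor genes are targeted in T cells) were male and were fed a choline-deficient, high-fat diet (60 kcal% fat, 0.1% methionine) for 8 weeks. Their age is not given in the sources used here. CD4+ T cells were sorted from the liver by flow cytometry, and each genotype was measured in 1 droplet library of RNA and 1 of T cell receptors, pooled from 2 mice whose cells the files do not separate. With 1 library per genotype no test between genotypes was possible, and all intervals in parentheses are 95% intervals that cover counting error only. They treat UMIs and cells as independent, so that the spread between mice and between cells is not in them.

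The library labelled WT held 10602 cells and 23494155 UMIs (unique molecular identifiers, each standing for 1 captured RNA molecule), and the library labelled dKO held 17645 cells and 37966611 UMIs. *Nr4a1* had 704 CPM (UMIs of a gene scaled to the summed UMIs of the same cells) in conventional T cells of the library labelled WT and 1752 CPM in those of the library labelled dKO, and *Nr4a2* 206 and 455 CPM, which goes against the label. In the same order, 4.38% and 18.4% of cells had both *Cd3* and *Foxp3* UMIs by the gate given next. The counts do not tell apart the exons, and RNA left outside a floxed segment is counted too, so every direction between genotypes given here rests on the labels. Of the cell barcodes, 242 occurred in both libraries.

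Cells were gated by marker UMIs. T cells had at least 2 UMIs of *Cd3d*, *Cd3e* and *Cd3g*, and they were divided into Foxp3 cells (462 in the WT-labelled library, 3210 in the dKO-labelled library) and conventional T cells without a *Foxp3* UMI (6386 and 7928). Plasmacytoid dendritic cells (pDCs, 1585 and 3920) and myeloid cells (301 and 415) were gated from *Siglech*, *Klk1*, *Cox6a2* and *Ly6d* and from *Lyz2*, *Csf1r*, *C1qa*, *C1qb*, *C1qc*, *Cd68* and *Adgre1*. In the T cell gates *Cd4* had 214 and 258 CPM in the WT-labelled library and 857 and 876 CPM in the dKO-labelled library, and *Cd8a* had no more than 0.5 CPM. The T gates therefore hold CD4+ T cells, while pDCs and myeloid cells are other cell types that the sort had let through. In the myeloid gate the neutrophil markers *S100a8*, *S100a9* and *Ly6g* summed to 9136 CPM in the dKO-labelled library and 11.0 CPM in the WT-labelled library, so these gates hold different mixtures. Median UMIs per cell were 1847 and 1361 in conventional T cells, 2386.5 and 1677.5 in Foxp3 cells and 1665 and 3048 in pDCs. A *Foxp3* UMI was also found in 0.946% and 5.84% of pDCs, cells that should lack it. *Ikzf2* and *Il2ra*, which mark regulatory T cells (Tregs), reached together 177 CPM in conventional T cells of the WT-labelled library and 714 CPM in those of the dKO-labelled library.

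As background, a cell that leaves G1 first transcribes genes for DNA replication, driven by E2F factors. The MCM helicase is loaded onto origins with the help of CDC6, PCNA clamps the polymerase to DNA, and RRM1, RRM2, TYMS, DUT and TK1 supply nucleotides. Genes for chromosome segregation follow in G2, many through a promoter element called CHR that often lies near CCAAT boxes. Among them cyclins A2, B1 and B2 activate CDK1, PLK1 and the Aurora kinases drive mitosis, kinesins and CENP proteins act at the spindle and the centromere, and CDC20 and UBE2C take part in the destruction of cyclins. T cells divide after antigen recognition, and mature pDCs divide little.

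These promoter elements were looked up in the members, since the phase groups are known to differ in them. RefSeq windows of GRCm38.p6, from 250 bases before to 50 after a transcription start, were found for 34 of the 40 members, in 36 windows (*Mcm4*, *Gins2*, *Ccna2*, *Tpx2*, *Aurkb* and *Stmn1* had none). The following stretches lie within 165 bases before the start, those of *Cdc6* and *Mcm5* ending 91 and 106 bases before it, and are written 5′ to 3′ on the strand of the gene, on the plus strand for *Cdc6*, *Mcm5*, *Ube2c* and *Kif11* and on the minus strand for the others. They are shown for the E2F letters of S phase members and the CHR letters of G2/M members. Capitals mark E2F letters (TTTCCCGC, TTTGGCGC, TTTCGCGC or TTTGCCGC) in the 3 S phase genes, where neighbouring matches can overlap, and CHR letters (TTTGAA) and CCAAT letters in the 5 G2/M genes, each on either strand. CCAAT letters are not marked in the S phase stretches, although that of *Mcm6* holds them too.
*Mcm6*, chr1:128359736-128359825: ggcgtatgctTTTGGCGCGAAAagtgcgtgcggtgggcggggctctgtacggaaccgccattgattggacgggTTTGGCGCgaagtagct
*Cdc6*, chr11:98908001-98908060: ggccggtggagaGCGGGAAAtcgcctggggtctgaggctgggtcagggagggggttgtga
*Mcm5*, chr8:75109344-75109403: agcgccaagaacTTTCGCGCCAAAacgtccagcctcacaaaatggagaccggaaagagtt
*Cdc20*, chr4:118437344-118437413: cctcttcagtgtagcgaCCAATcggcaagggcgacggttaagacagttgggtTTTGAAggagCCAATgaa
*Top2a*, chr11:99024190-99024279: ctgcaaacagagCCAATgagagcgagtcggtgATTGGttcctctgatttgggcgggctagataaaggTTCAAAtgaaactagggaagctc
*Cdk1*, chr10:69352913-69353002: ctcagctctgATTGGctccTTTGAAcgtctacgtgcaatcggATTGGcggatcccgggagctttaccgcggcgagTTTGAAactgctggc
*Ube2c*, chr2:164769839-164769928: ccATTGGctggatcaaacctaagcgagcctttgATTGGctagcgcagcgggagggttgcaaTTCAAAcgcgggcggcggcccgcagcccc
*Kif11*, chr19:37376292-37376381: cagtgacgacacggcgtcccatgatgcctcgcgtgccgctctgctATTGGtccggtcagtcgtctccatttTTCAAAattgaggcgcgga

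E2F letters were in 7 of the 16 windows of S phase members (*Mcm3*, *Mcm5*, *Mcm6*, *Mcm7*, *Cdc6*, *Uhrf1* and *Pclaf*, with *Mcm7* and *Uhrf1* in 1 of their 2 windows) and in 1 of the 19 windows of G2/M members, that of *Cdk1*. Of all 32851 promoter windows, 2.26% held them. CHR letters were in 14 of the 19 G2/M windows, and each of those 14 also held a CCAAT box. In S phase members CHR letters were found in *Mcm2* alone. Over all windows 17.9% held CHR letters, 37.4% held CCAAT letters and 6.95% held both. CCAAT letters were in 17 of the 19 G2/M windows and in 12 of the 16 S phase windows, and so were common in both groups. A match describes the letters and is no evidence of binding.

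All members were higher in conventional T cells than in pDCs in both libraries, and the median gap was larger for G2/M than for S phase members. In conventional T cells the 22 G2/M members summed to 1917 CPM in the WT-labelled library and 1481 CPM in the dKO-labelled library, against 363 and 282 CPM in pDCs. *Hmgb2* alone had 959 and 760 CPM in conventional T cells and 252 and 199 CPM in pDCs, so that sums of G2/M members give it much weight. The 16 S phase members summed to 815 and 795 CPM in conventional T cells and to 207 and 204 CPM in pDCs. For each of the 40 members the interval of the log2 ratio, conventional T cells over pDCs, lay above 0 in both libraries, where it did for 40.7% of all genes with at least 50 UMIs in the WT-labelled library and 44.8% in the dKO-labelled library. The median log2 ratio was 3.34 for G2/M members and 2.02 for S phase members in the WT-labelled library, and 3.59 and 2.09 in the dKO-labelled library.

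*Pcna*, the sliding clamp, which also serves in DNA repair, was the member closest between the 2 cell types. It had 106 CPM (101 to 111) in conventional T cells and 54.2 CPM (47.2 to 62.0) in pDCs of the WT-labelled library, and 86.6 and 46.3 CPM in the dKO-labelled library, log2 ratios of 0.97 and 0.90. *Tubb5* followed with log2 ratios of 1.03 and 0.92. Wide gaps were found in members of both phases. In the WT-labelled library *Cdc6* had 7.36 CPM in conventional T cells and 0.25 CPM in pDCs (1 UMI), and *Pclaf* 96.0 and 6.87 CPM. *Ccna2*, which encodes cyclin A2, had 42.1 CPM in conventional T cells and 1.78 CPM (0.72 to 3.67) in pDCs of the WT-labelled library, and 29.6 and 1.63 CPM in the dKO-labelled library.

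*Mki67*, which encodes the proliferation antigen Ki-67, had 285 CPM (258 to 313) in Foxp3 cells and 148 CPM (142 to 155) in conventional T cells of the WT-labelled library. In the dKO-labelled library it had 146 CPM (137 to 155) and 92.4 CPM (87.3 to 97.7). Its levels in pDCs were 14.8 and 9.87 CPM and in myeloid cells 25.8 and 17.04 CPM. With *Foxp3* sought in all UMIs of a cell, the order was therefore Foxp3 cells, conventional T cells, myeloid cells and pDCs in both libraries, although the intervals of the last 2 overlapped in each (15.9 to 39.4 and 11.2 to 19.1 CPM in the WT-labelled library, 11.1 to 24.97 and 8.23 to 11.7 CPM in the other). With *Foxp3* sought in 1000 UMIs drawn from each cell, summed G2/M members were not higher in Foxp3 cells than in conventional T cells (log2 ratios of −0.01 and −0.40).

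*Top2a*, the topoisomerase that disentangles replicated chromosomes, had the same order, with 196 and 143 CPM in Foxp3 cells, 128 and 95.1 CPM in conventional T cells, 29.4 and 22.9 CPM in myeloid cells and 16.03 and 12.7 CPM in pDCs, each pair giving the WT-labelled library first. *Ccnb1* (cyclin B1) had 43.0 and 12.5 CPM in Foxp3 cells and 14.0 and 9.17 CPM in conventional T cells. Its counts elsewhere were near the floor, with 3 and 7 UMIs in pDCs and 1 and 3 in myeloid cells. *Cdc20*, the activator of the anaphase-promoting complex, had 38.9 and 18.3 CPM in Foxp3 cells, 22.7 and 11.1 CPM in conventional T cells and at most 2.45 CPM in the other gates.

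Among S phase genes, *Mcm5* had 32.8 and 40.9 CPM in Foxp3 cells and 39.3 and 31.3 CPM in conventional T cells. Foxp3 cells were thus higher in the dKO-labelled library, and in the WT-labelled library the intervals overlapped (24.2 to 43.4 and 36.2 to 42.7 CPM). *Rrm2*, the regulated subunit of ribonucleotide reductase, had 56.7 and 54.9 CPM in Foxp3 cells, 44.8 and 41.6 CPM in conventional T cells, 7.36 and 5.24 CPM in myeloid cells and 4.58 and 3.73 CPM in pDCs. *Stmn1* had 218 and 169 CPM in Foxp3 cells, 163 and 131 CPM in conventional T cells and at most 46.6 CPM elsewhere. *Tubb5*, which resting cells express as well, had 508 and 482 CPM in Foxp3 cells, 455 and 399 CPM in conventional T cells, 224 and 211 CPM in pDCs and 168 and 178 CPM in myeloid cells.

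**Figure D1:**
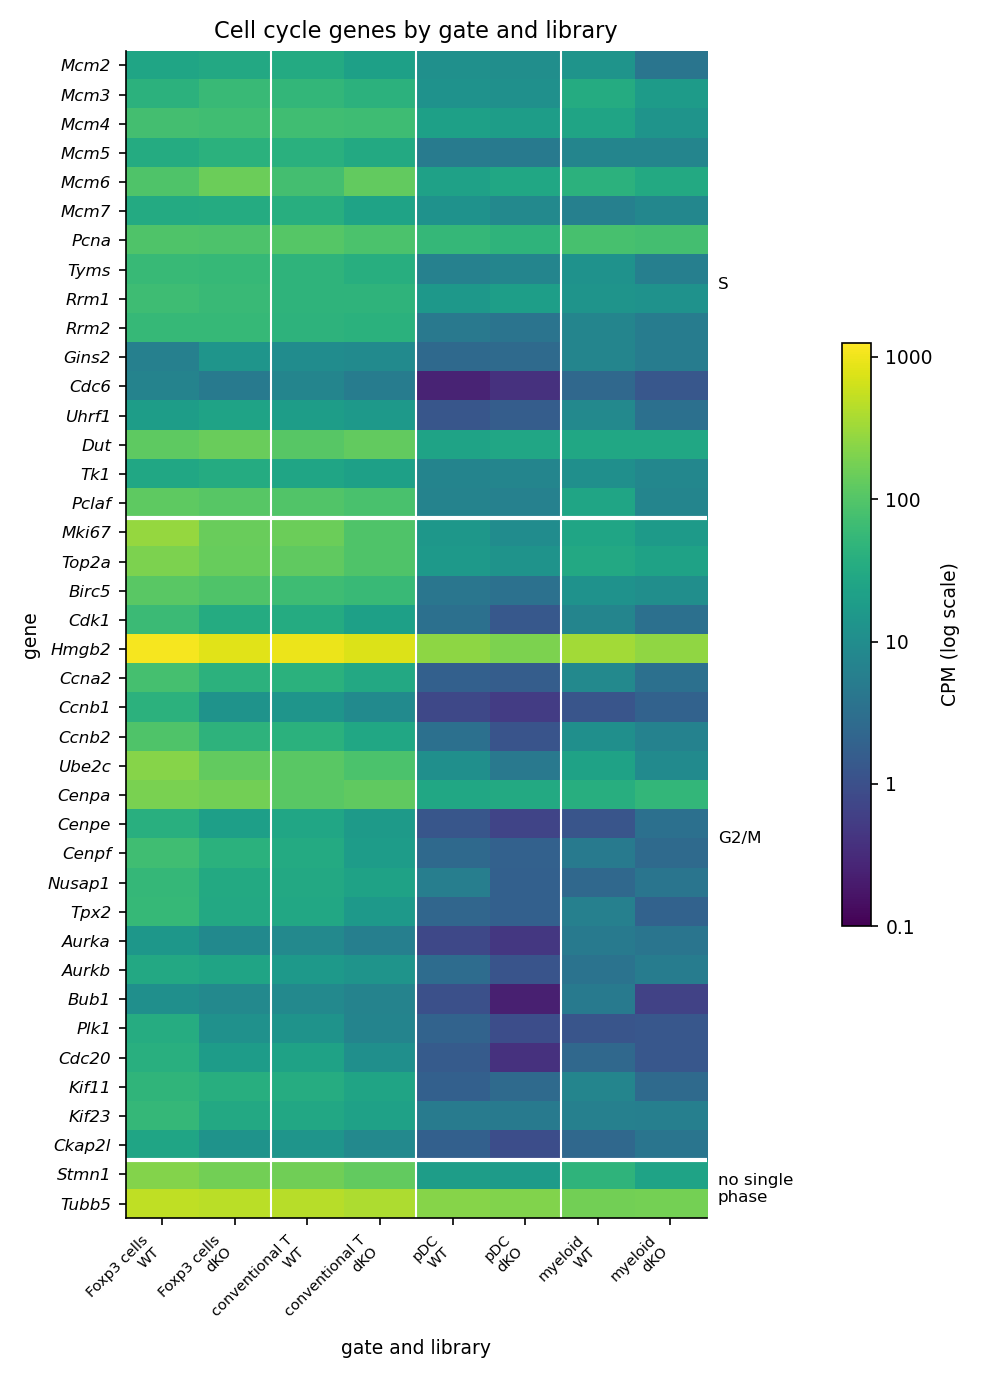
Levels of the 40 members (rows, ordered by phase) in 4 gates of both libraries (columns), as CPM of summed UMIs on a log colour scale. The columns of Foxp3 cells and conventional T cells are brighter than those of pDCs and myeloid cells for nearly all rows, and the median contrast of conventional T cells with pDCs is larger for G2/M than for S phase members (log2 ratios of 3.34 and 2.02 in the WT-labelled library).

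To ask how many cells carried these genes together, cells were brought to 1000 UMIs each by random draws, shallower ones being left out, and a cell with UMIs of at least 3 S phase members or at least 3 G2/M members was put in a phase class (S only, G2/M only or both). In the WT-labelled library 554 of 5662 conventional T cells (9.78%, 9.02 to 10.6) and 54 of 420 Foxp3 cells (12.9%, 9.81 to 16.4) were in a phase class. In the dKO-labelled library it was 342 of 6220 conventional T cells (5.498%, 4.94 to 6.09) and 209 of 2730 Foxp3 cells (7.66%, 6.69 to 8.72). Of pDCs 0.678% and 0.563% met the rule, which gives the background in cells that should divide little, and of myeloid cells 2.86% and 1.02%. Both T cell gates were thus well above pDCs in each library. With all UMIs of each cell the shares were 16.8% and 7.77% of conventional T cells and 24.5% and 13.5% of Foxp3 cells, against 3.03% and 3.14% of pDCs and 6.98% and 6.02% of myeloid cells.

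The class cells were also counted by phase. Conventional class cells (those in any phase class) of the WT-labelled library comprised 140 S only, 171 both and 243 G2/M only cells, and those of the dKO-labelled library 92, 117 and 133. G2/M only cells made up 43.9% and 38.9% of them, a difference of −4.97 percentage points whose interval spanned 0 (−11.5 to 1.68). The interval lay below 0 in a second draw (−8.39 points, −14.8 to −1.76), with at least 4 members per class (−9.14, −16.8 to −1.33) and without *Hmgb2*, *Pcna*, *Dut* and *Tyms* (−9.27, −16.9 to −1.55), and with 1 cell per clone the value was 3.19. Foxp3 class cells comprised 4 S only, 12 both and 38 G2/M only cells in the WT-labelled library and 48, 71 and 90 in the dKO-labelled library. G2/M only cells made up 70.4% and 43.1% of them, a difference of −27.3 points (−39.7 to −12.5). The size of this difference moved with the random draw and the setting. In 2 other draws of 1000 UMIs it was −21.0 points and −14.7 points (−28.1 to −0.06), the latter with all deposited cells, which held 422 and 2740 Foxp3 cells in place of 420 and 2730, so that the value first given is the largest of the 3 draws. It was −15.7 points at 2000 UMIs per cell and −3.92 points (−13.5 to 4.47) with all UMIs of each cell.

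Shares were also taken for each phase on its own. The share of Foxp3 cells with at least 3 G2/M members was 11.9% in the WT-labelled library and 5.90% in the dKO-labelled library, a difference of −6.01 points (−9.55 to −3.09). The share with at least 3 S phase members was 3.81% and 4.36% (0.55 points, −1.84 to 2.22). In conventional T cells both shares were lower in the dKO-labelled library, by −3.29 points (−4.14 to −2.46) for G2/M members and −2.13 points (−2.88 to −1.39) for S phase members.

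**Figure D2:**
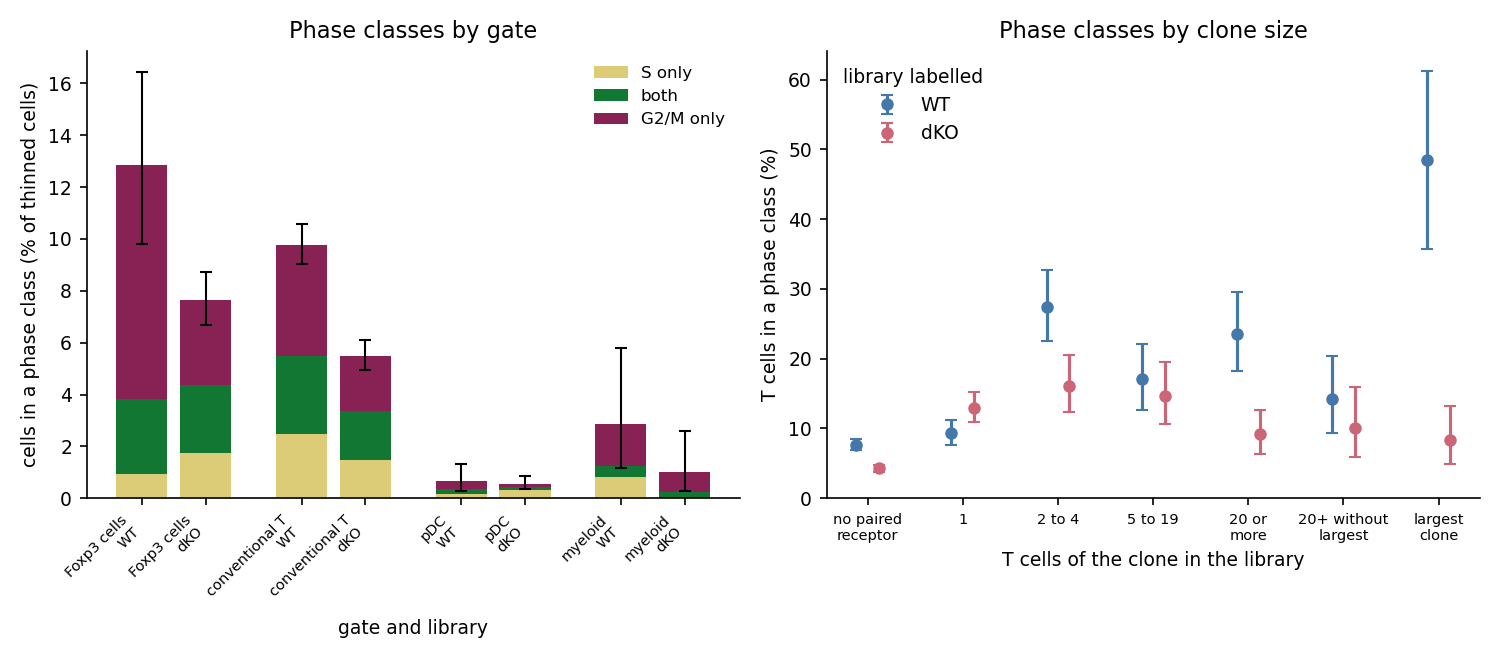
Left, share of thinned cells in a phase class by gate and library, as stacked bars for S only, both and G2/M only, and right, share of T cells in a phase class by the number of T cells that carry the same receptor pair, both with 95% intervals. The T cell gates stand above pDCs, the Foxp3 bar of the WT-labelled library is mostly G2/M only cells, and the largest clone of the WT-labelled library reaches 48.4%.

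These shares moved with the depth of the cells. Class cells had more UMIs than other cells before thinning, with medians of 2811 against 1951.5 among conventional T cells of the WT-labelled library and 3654 against 1510 in the dKO-labelled library, and 4644.5 against 2522 and 5152 against 1826 among Foxp3 cells. Conventional T cells with 1000 to under 1500 UMIs were in a phase class in 6.59% of cases in the WT-labelled library and 1.37% in the dKO-labelled library, a difference of −5.23 points (−6.63 to −3.98). With 2000 to under 4000 UMIs the shares were 8.33% and 8.52% (0.20 points, −1.62 to 2.07). With 4000 UMIs or more they were 27.0% and 53.7%, a difference of 26.7 points (19.97 to 33.2) in the other direction. Of thinned conventional T cells, 12.4% of the WT-labelled library but 4.58% of the dKO-labelled library were that deep.

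Foxp3 cells also turned direction with depth. Their shares were 8.05% and 0.992% with 1000 to under 1500 UMIs, 7.14% and 4.87% with 2000 to under 4000 UMIs (interval of the difference −7.61 to 1.20 points), and 28.1% and 41.7% with 4000 UMIs or more, where the difference was 13.6 points (3.65 to 22.5). When 2000 UMIs per cell were drawn instead, 18.7% of 2818 conventional T cells of the WT-labelled library and 22.05% of 1787 of the dKO-labelled library were in a class, so that the direction turned (3.35 points, 0.97 to 5.77). Of Foxp3 cells 23.3% of 275 and 21.7% of 1295 were then in a class, a difference of −1.57 points whose interval spanned 0 (−7.34 to 3.59). Among Foxp3 cells with a paired receptor the difference at 1000 UMIs was −0.26 points (−7.35 to 5.56). Which library has the larger share of cells with cycle genes therefore depends on the depth of the cells compared. Class cells had more UMIs than other cells, so that bins and cuts by UMIs also select for class cells. The part of depth in the difference was not tested beyond these values.

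Droplets with under 10% ribosomal protein UMIs were also unevenly spread. They made up 7.94% of conventional class cells against 1.66% of other conventional T cells in the WT-labelled library, and 2.34% against 1.19% in the dKO-labelled library. Of Foxp3 class cells they were 7 of 54 in the WT-labelled library (13.0%) and 2 of 209 in the dKO-labelled library (0.957%), against 2.19% and 2.46% of other Foxp3 cells. Their part in the shares was not tested. Without these droplets the share of class cells was lower in the dKO-labelled library by −3.84 points in Foxp3 cells and −3.78 points in conventional T cells.

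**Figure D3:**
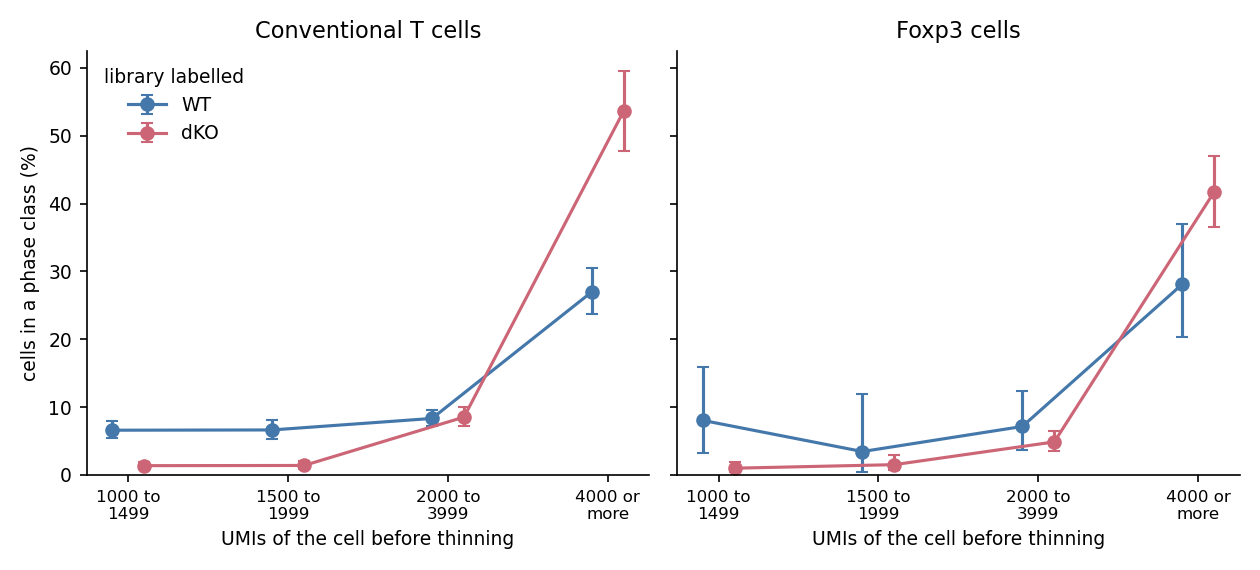
Share of cells in a phase class (vertical axis, percent) by the UMIs of the cell before thinning (horizontal axis), for both libraries, with 95% intervals. Below 2000 UMIs the WT-labelled library is higher in conventional T cells (6.59% against 1.37% in the lowest bin), at 2000 to under 4000 UMIs the points of conventional T cells nearly coincide (8.33% and 8.52%) while those of Foxp3 cells are 7.14% and 4.87%, and from 4000 UMIs the dKO-labelled library is higher in both gates.

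To see whether the members ordered cells by phase, each gene was left out in turn and the classes of all thinned T cells were formed again without it. *Ccna2* had 93.5% of its UMIs in class cells in the WT-labelled library and 93.8% in the dKO-labelled library. The median over G2/M members was 83.9% in the WT-labelled library and 76.3% in the dKO-labelled library. For S phase members it was 43.4% and 38.51%, with a range from 20.6% for *Mcm4* to 87.4% for *Pclaf* in the WT-labelled library and from 13.0% for *Mcm6* to 91.2% for *Pclaf* in the dKO-labelled library. S phase members were therefore found in cells outside the classes more than G2/M members were. *Hmgb2*, a chromatin protein, and *Cenpa*, the centromeric histone, had the lowest shares among G2/M members, with 39.1% and 39.2% in the WT-labelled library and 28.6% and 23.2% in the dKO-labelled library.

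All 22 G2/M members were higher in G2/M only than in S only cells of the WT-labelled library with an interval that excluded 0, and so were 20 of 22 in the dKO-labelled library (all but *Aurka* and *Bub1*), where 6.75% and 6.55% of all other genes with at least 20 UMIs were. *Ube2c*, the ubiquitin-conjugating enzyme of mitotic exit, had log2 ratios of 4.92 (3.78 to 6.37) and 5.27. *Cdc20* had 4.20 and 4.33, *Mki67* 1.80 and 2.30 and *Top2a* 1.14 and 1.56. Among S phase members 13 of 16 were on the S side in each library, with intervals that excluded 0 for 7 and 6 of them, such as *Mcm6* (−2.30 and −1.004) and *Pcna* (−1.31 in each library), where 5.17% and 5.72% of all other genes had an interval below 0. The other 3 S phase members, *Pclaf*, *Rrm2* and *Tk1*, lay on the G2/M side in each library, and of those 6 values the interval excluded 0 for *Pclaf* in the dKO-labelled library (0.87). *Stmn1* and *Tubb5* were also on the G2/M side, with log2 ratios of 0.36 and 1.08 for *Stmn1* and 1.03 and 1.22 for *Tubb5*. Of these the interval of *Stmn1* in the WT-labelled library spanned 0 (−0.01 to 0.74).

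**Figure D4:**
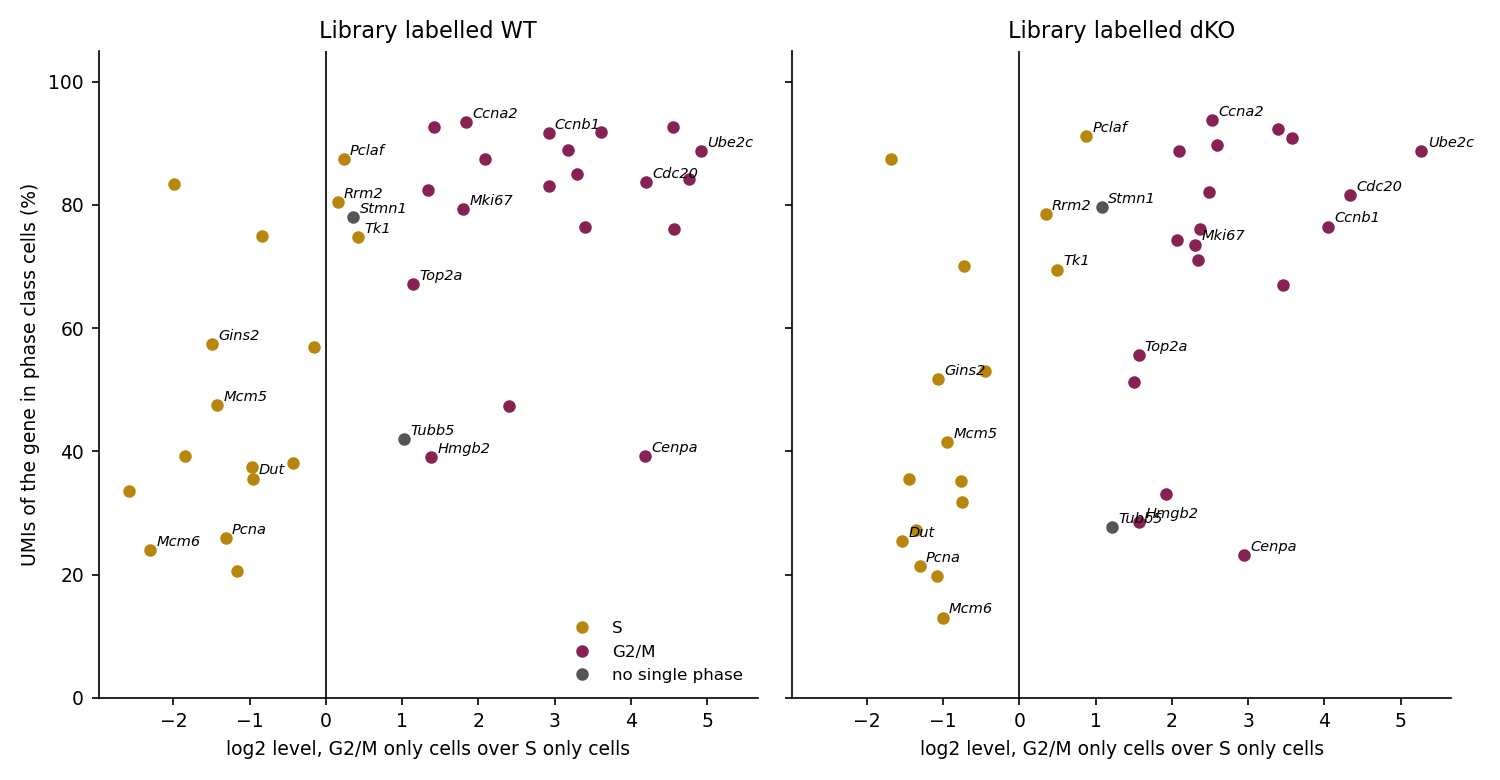
Each point is 1 member in thinned T cells, with its log2 ratio of G2/M only over S only cells (horizontal axis) and the percent of its UMIs in class cells (vertical axis), the classes being formed without it. Members with no UMI in S only cells are not drawn, G2/M members lie right of 0 with a median of 83.9% in the WT-labelled library, and S phase members lie left of 0 except *Pclaf*, *Rrm2* and *Tk1*.

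In conventional T cells, pairs of members were found in the same thinned cell more often than the product of their separate shares gives. Summed over pairs of G2/M members, the number of cells with both was 3.995 times that product in the WT-labelled library and 4.18 times in the dKO-labelled library. For pairs of S phase members it was 2.996 and 2.97 times, and for an S phase with a G2/M member 2.33 and 2.36 times. The median over pairs was 9.68 and 14.1 times for G2/M members, 3.55 and 3.93 times for S phase members and 3.005 and 4.21 times for an S phase with a G2/M member, so that the order of the last 2 kinds of pair turned in the dKO-labelled library. Of the 130 conventional T cells with *Ccna2* in the WT-labelled library, 74 also had *Mki67* (56.9%) and 20 had *Mcm5* (15.4%). *Mcm5* and *Pcna* were found together in 39 cells where the product gives 16.1. *Pcna* and *Cdc20*, from the early and the late end of the cycle, shared 7 cells where the product gives 6.87.

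The level of each member was then compared between the libraries, as log2 ratio of CPM, dKO over WT, for genes with at least 50 UMIs in both libraries together. In Foxp3 cells 39 members were tested by this rule (not *Cdc6*), and in conventional T cells all 40. In Foxp3 cells all 22 G2/M members were lower in the dKO-labelled library, 17 with an interval that lay below 0 (as in 16.4% of all genes), with a median log2 ratio of −0.83 against −0.01 over all 9191 genes. The intervals of *Birc5*, *Cenpa*, *Aurkb*, *Bub1* and *Kif11* spanned 0. Of the 15 S phase members 9 were higher, 4 with an interval above 0 (as in 14.9% of all genes), with a median of 0.19. Another scaling (TMM) made it 12 of 15 higher, and averaging the CPM of single cells 3 of 15. Past 2-fold lower were 5 of 39 members, where 3.5% of all genes were, and past 2-fold higher was 1, where 3.53% were. Members past 2-fold in either direction, 6 here, ranged from 3 to 13 over the settings tried. The 3 were found without droplets of under 10% ribosomal protein UMIs and the 13 with averaged single-cell CPM. By these settings 6.79% and 9.63% of all genes were past 2-fold.

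*Ccnb1* (chr13:100778650-100786570 of GRCm38) had the lowest ratio in Foxp3 cells, −1.78 (−2.26 to −1.29), from 63 UMIs in 31 cells of the WT-labelled library and 89 UMIs in 59 cells of the dKO-labelled library. *Plk1*, the Polo-like kinase, was next with −1.53 (−2.05 to −0.99), from 34.1 to 11.8 CPM. *Ccnb2* and *Cdc20* both had −1.09 and *Ckap2l* −1.01. *Mki67* had −0.96 (−1.13 to −0.79), from 417 UMIs in 87 cells and 1037 UMIs in 269 cells. Without droplets of under 10% ribosomal protein UMIs, *Ccnb1* and *Plk1* alone remained past 2-fold lower, and the median of the G2/M members was −0.47.

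The 4 S phase members with an interval above 0 in Foxp3 cells were *Gins2*, *Mcm6*, *Mcm3* and *Dut*. *Gins2*, a subunit of the GINS complex of the replicative helicase, had a log2 ratio of 1.17 (0.19 to 2.34), which rests on 9 UMIs in the WT-labelled library and 98 in the dKO-labelled library. *Mcm6* (chr1:128331590-128359664) had 93.5 and 149 CPM, a log2 ratio of 0.67 (0.42 to 0.94), so that its intervals did not overlap between libraries. *Mcm3* had 43.0 and 59.2 CPM (0.46, 0.08 to 0.87) and *Dut*, which removes dUTP, 120 and 145 CPM (0.27, 0.03 to 0.51). The nucleotide genes *Rrm1*, *Rrm2* and *Tyms*, and *Pcna*, had intervals that spanned 0.

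In conventional T cells 21 of 22 G2/M members were lower in the dKO-labelled library, 20 with an interval below 0 (as in 28.2% of all genes), with a median log2 ratio of −0.50 against −0.03 over all 11219 genes. Of the S phase members 14 of 16 were lower, 9 with an interval below 0, with a median of −0.22, and 2 had an interval above 0 (as in 25.6% of all genes). Past 2-fold lower was 1 of 40 members, *Cdc20*, where 3.6% of all genes were (0 of 40 with TMM scaling and 17 of 40 with averaged single-cell CPM, by which 3.31% and 4.56% of all genes were), and past 2-fold higher was 0 of 40, where 4.31% were. *Cdc20* (chr4:118432901-118437352) went from 22.7 to 11.1 CPM (−1.04, −1.33 to −0.75), *Plk1* from 12.9 to 7.05 CPM (−0.87) and *Tpx2*, a spindle assembly factor, from 29.1 to 16.1 CPM (−0.85). *Mcm7* (−0.62) and *Mcm2* (−0.59) were the lowest of the S phase members.

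*Mcm6*, *Dut* and *Cenpa* were the 3 members that were higher in conventional T cells of the dKO-labelled library. *Mcm6* went from 74.5 CPM (70.1 to 79.0) to 128 CPM (122 to 135), a log2 ratio of 0.78 (0.67 to 0.90), against −0.62 to −0.01 for the other 5 MCM genes, whose products form 1 complex with it. In Foxp3 cells it was 0.67. Over 11 settings, the reported one among them, it lay between 0.64 and 0.85 in conventional T cells and between 0.35 and 0.92 in Foxp3 cells. Some of these settings left the sums of a gate as they were, so that fewer than 11 ways of forming them were tried in each gate. *Cenpa* had 0.16 (0.06 to 0.26), which ranged from −0.01 to 0.24 over those settings, and *Dut* 0.26 (0.16 to 0.36), which reached −0.01 when the CPM of single cells were averaged.

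pDCs and myeloid cells were compared between the libraries by the same rule. Of 22 members with at least 50 UMIs in pDCs, *Ube2c* alone was past 2-fold between libraries, with a log2 ratio of −1.28 (−1.87 to −0.67), where 4.36% of all genes were in either direction. *Mcm6* had 21.9 and 27.5 CPM in pDCs (0.33, −0.01 to 0.69). In myeloid cells 9 members had enough UMIs and none was past 2-fold, where 5.35% of all genes were, in gates whose cell mixtures differed.

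**Figure D5:**
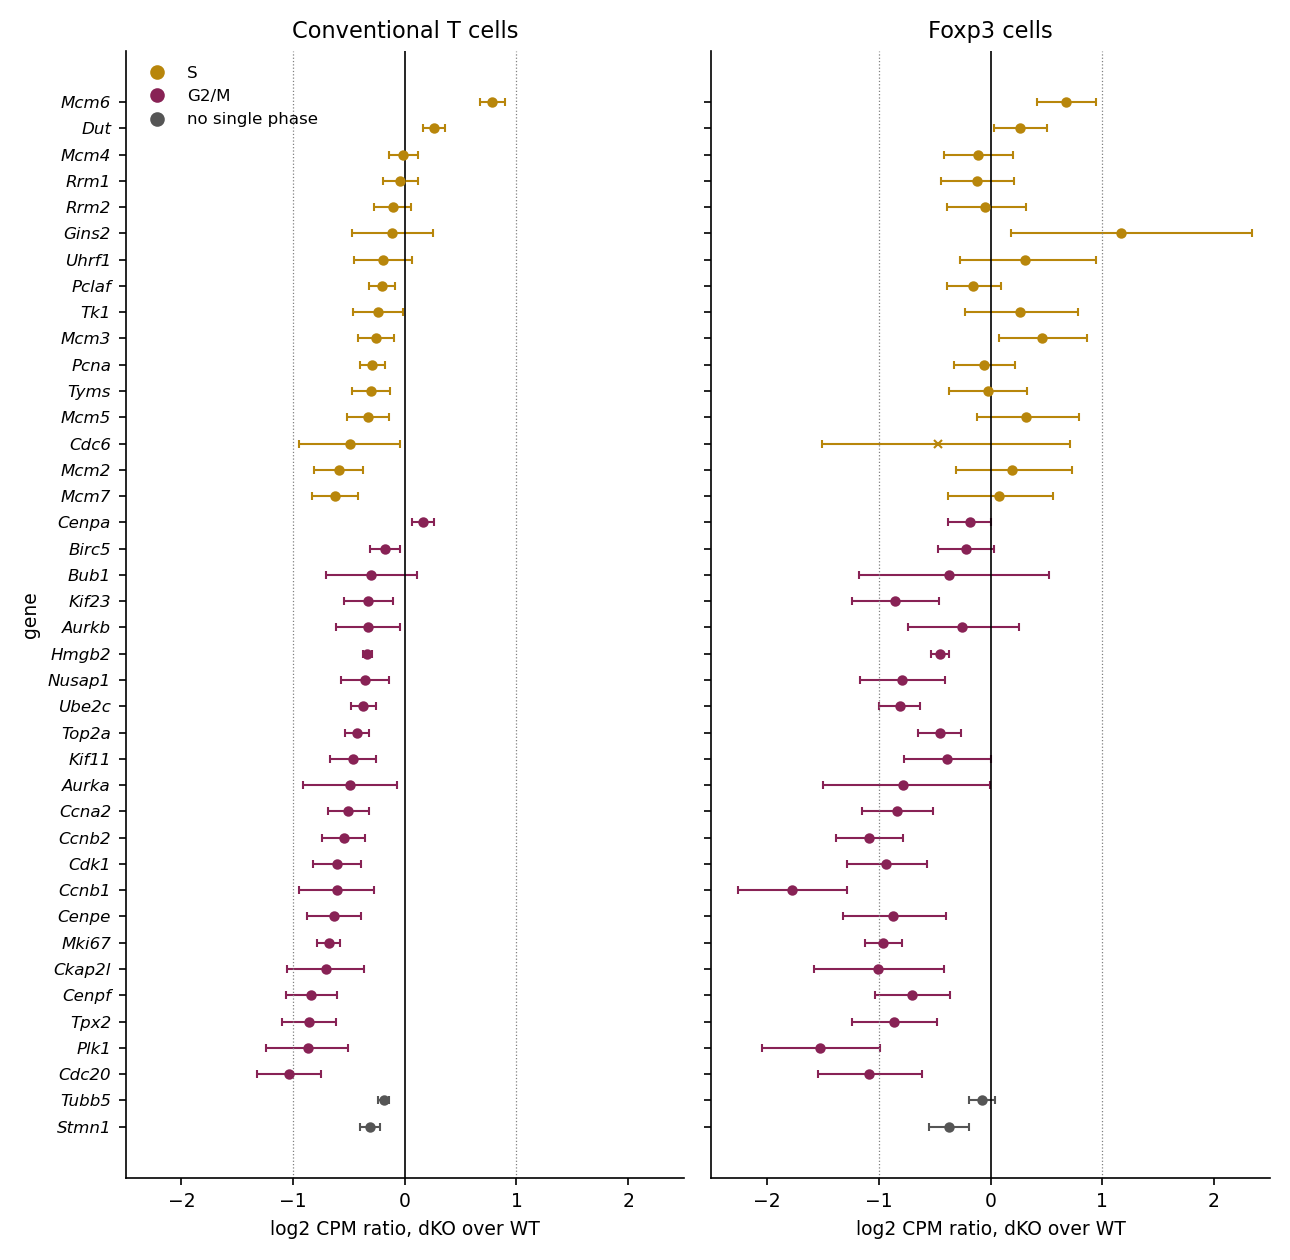
Log2 ratio of CPM, dKO over WT by label, for each member in conventional T cells (left) and Foxp3 cells (right), with 95% intervals for counting error, dotted lines at 2-fold and a cross for the 1 member below 50 UMIs. G2/M members lie left of 0 in both gates except *Cenpa* in conventional T cells, whereas S phase members lie on both sides in Foxp3 cells and *Mcm6* is the farthest to the right in conventional T cells.

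These ratios hold both the number of class cells and the level within them, and the sums of a gate cannot tell apart fewer cells from less RNA per cell. With classes formed without the gene in question, *Mcm6* was higher in the dKO-labelled library among conventional class cells (176 and 283 CPM, 0.68, 0.25 to 1.11) and also among cells outside the classes (55.0 and 105.4 CPM, 0.94, 0.73 to 1.15). *Mcm3* (0.54) and *Mcm4* (0.70) were higher within class cells, while outside the classes *Mcm2* (−0.70), *Mcm5* (−0.74) and *Mcm7* (−0.81) were lower. Within conventional class cells 12 of 16 S phase members were higher in the dKO-labelled library, 3 with an interval that excluded 0, and 15 of 22 G2/M members were lower, also 3 with such an interval (*Hmgb2*, *Ube2c* and *Cenpf*). Of 5816 other genes with at least 20 UMIs in these cells 51.7% were higher, 7.41% with an interval above 0 and 6.62% with an interval below 0. For *Mki67* the ratio within class cells was −0.19 (−0.42 to 0.04).

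Within Foxp3 class cells all 13 S phase members with at least 20 UMIs were higher in the dKO-labelled library, 1 of them (*Mcm6*, 1.79, 0.35 to 3.72) with an interval that excluded 0. They met this rule mainly through the dKO-labelled library, with 4 and 39 UMIs for *Mcm3* and 17 and 107 for *Pclaf*. Of the members that the rule left out, *Mcm2* was lower (4 and 10 UMIs, −0.60, −2.40 to 1.52). *Gins2* was higher (2 and 11 UMIs, 0.51, −1.68 to 3.73), and *Cdc6* had 0 and 5 UMIs. Of 19 G2/M members with at least 20 UMIs 17 were lower, 2 with an interval that excluded 0. Of 2344 other genes 54.8% were higher, 5.25% with an interval above 0 and 4.69% with an interval below 0. These class cells were made up differently in the libraries, with 70.4% and 43.1% G2/M only cells, and how far that moved the levels was not tested. *Ube2c* had −0.76 (−1.21 to −0.28) and *Hmgb2* −0.28 (−0.53 to −0.02). *Plk1*, with under 20 UMIs, had 8 UMIs in 54 cells and 10 UMIs in 208 cells. Outside the classes *Mki67* went from 57.2 to 20.2 CPM (−1.50, −2.26 to −0.70).

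Other genes of the cell cycle, taken from lists of known members of each phase, were set beside these. Of 21 further G2/M genes measured in Foxp3 cells 20 were lower in the dKO-labelled library, 4 of them past 2-fold, where 3.5% of all genes were past 2-fold lower, and in conventional T cells 21 of 23 were lower. Over all genes, 49.2% were higher in Foxp3 cells and 46.4% in conventional T cells. Of further S phase genes 8 of 17 were higher in Foxp3 cells and 5 of 18 in conventional T cells. G1 regulators were lower in 12 of 19 and 14 of 22. Further G2/M genes had medians of −0.48 and −0.46 in the gates, and further S phase genes of Foxp3 cells had a median of −0.02.

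Foxp3 cells and conventional T cells were compared within each library, where the capture was shared. In the WT-labelled library all 22 G2/M members were higher in Foxp3 cells, 21 with an interval above 0 (as in 14.5% of all genes, median log2 ratio 0.87), and 9 of 16 S phase members were higher (median 0.05). *Ccnb1* (1.62, 1.19 to 2.04), *Plk1* (1.41) and *Ccnb2* (1.19) led, and 5 members were past 2-fold, where 6.99% of all genes were in either direction. In the dKO-labelled library all 22 G2/M members (median 0.58, 20 with an interval above 0) and 15 of 16 S phase members (median 0.40, 13 with an interval above 0) were higher in Foxp3 cells, where 19.3% of all genes had such an interval, with *Cenpf* (1.22, 0.97 to 1.47) as the 1 member past 2-fold, where 2.63% of all genes were. The share of class cells was higher in Foxp3 cells by 3.07 points (0.10 to 6.69) in the WT-labelled library and 2.16 points (1.05 to 3.34) in the dKO-labelled library. In the WT-labelled library the interval spanned 0 without cells with 2 or more TRB chains (2.97 points, −0.04 to 6.64), with a *Cd3* sum of at least 4 UMIs (−0.32 to 7.25) and at 2000 UMIs per cell (−0.27 to 10.1). In the dKO-labelled library the value at 2000 UMIs per cell had the other sign, with an interval that spanned 0 (−0.35 points, −3.28 to 2.63).

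*Foxp3* was also looked for in the thinned cell, so that both the gate and the class rest on 1000 UMIs. This reduced the Foxp3 cells from 420 to 239 in the WT-labelled library and from 2730 to 1796 in the dKO-labelled library, the others being counted as conventional T cells. The share of class cells differed by 0.48 points (−2.89 to 5.07) in the WT-labelled library and by −1.92 points (−2.98 to −0.72) in the dKO-labelled library. The summed G2/M members then had log2 ratios, Foxp3 cells over conventional T cells, of −0.01 (−0.16 to 0.15) and −0.40 (−0.48 to −0.32), in place of 0.39 and 0.17 over the same thinned UMIs, and the S phase members −0.29 and −0.28 in place of −0.12 and 0.15. The direction for G2/M members thus depended on how the gate was set, and the cause was not tested. At 1000 UMIs, *Foxp3* was detected in 4.11% of class T cells and 3.91% of other T cells of the WT-labelled library, and in 15.1% and 20.4% of those of the dKO-labelled library.

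T cell clones were defined by the paired CDR3 of the TRA and TRB chains, which was found for 1966 T cells of the WT-labelled library and 2113 of the dKO-labelled library. In that order these were 1807 of 6386 and 1392 of 7928 conventional T cells, and 159 of 462 and 721 of 3210 Foxp3 cells. Clone sizes count these cells alone, so that a receptor seen in 1 cell can belong to a larger clone. The part of cells without a pair differed between the libraries. In the WT-labelled library the share of cells in a phase class was 9.33% (7.68 to 11.2) for receptors seen in 1 cell, 27.4% (22.5 to 32.7) for clones of 2 to 4 cells, 17.05% (12.7 to 22.1) for 5 to 19 cells and 23.6% (18.3 to 29.6) for 20 cells or more. In the dKO-labelled library it was 12.9% (10.9 to 15.2), 16.1% (12.4 to 20.5), 14.7% (10.7 to 19.6) and 9.14% (6.34 to 12.7). The share thus differed by 14.3 points (8.95 to 20.3) between clones of 20 or more and single cells in the WT-labelled library and by −3.80 points (−7.25 to 0.20) in the dKO-labelled library. By gate, it differed by 15.7 points (10.3 to 21.9) in conventional T cells of the WT-labelled library, where clones of 20 or more held 5 Foxp3 cells. In the dKO-labelled library it differed by −0.97 points (−5.15 to 4.14) in conventional T cells and by −9.02 points (−14.8 to −1.96) in Foxp3 cells, from 58 of 333 to 11 of 131 cells. Before thinning, its largest clone alone gave 141 of the 269 conventional T cells and 98 of the 150 Foxp3 cells in clones of that size. Both gates thus held cells of the same clones, and these values do not stand for separate sets of clones. Cells with no paired receptor had 7.67% and 4.28%.

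The largest clone carried much of the first difference. Of its 64 thinned cells in the WT-labelled library 31 were in a phase class (48.4%, 35.8 to 61.3), with 8 S only, 7 both and 16 G2/M only cells, and none of its cells had a *Foxp3* UMI. Without it the clones of 20 or more had 14.2%, 4.87 points (0.04 to 11.1) above single cells. The largest clone of the dKO-labelled library, of which 98 of 239 cells had a *Foxp3* UMI, had 16 of 192 thinned cells in a class (8.33%, 4.84 to 13.2). The other 9 of the 10 largest clones of that library ranged from 0 of 16 to 8 of 17 cells, so that class cells were unevenly spread over clones. Median UMIs of the cells before thinning were 2650 for single cells and 2159 for clones of 20 or more in the WT-labelled library, and 2177 and 1674.5 in the dKO-labelled library.

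Levels of the members followed the same pattern. Summed G2/M members had 1881 CPM in single cells and 4263 CPM in clones of 20 or more of the WT-labelled library, and 3080 and 2020 CPM in the dKO-labelled library. Summed S phase members had 830 and 1504 CPM in the WT-labelled library and 1279 and 1162 CPM in the dKO-labelled library. For *Mki67* the levels from single cells to the largest size were 166, 434, 354 and 383 CPM in the WT-labelled library and 214, 317, 203 and 166 CPM in the dKO-labelled library. In both libraries clones of 2 to 4 cells had the highest G2/M level (5134 and 3929 CPM). Among all cells with a paired receptor, the share of class cells was 14.9% and 11.3% of conventional T cells and 16.6% and 16.3% of Foxp3 cells. When 1 cell per clone was counted of these, it was 10.6% and 11.2% of conventional T cells and 18.0% and 17.8% of Foxp3 cells, and the dKO-labelled library was not lower in conventional T cells (0.62 points, −2.19 to 3.58).

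Class cells were last compared with other conventional T cells for genes that took no part in forming the classes. All 18 further S phase genes and all 20 and 17 further G2/M genes with at least 20 UMIs were higher in class cells of both libraries, such as *Fen1*, the flap endonuclease of replication (2.90 and 2.96), and *Cks2*, a CDK subunit (2.53 and 2.15). An interval above 0 was found for all but 2 of them, both further S phase genes in the dKO-labelled library, and for 13.6% and 10.7% of all genes that are no members. Of G1 regulators 16 of 21 and 14 of 18 were higher, 14 and 9 with an interval above 0, and of all genes that are no members 44.2% and 45.3% were higher. *E2f1* had log2 ratios of 3.98 and 5.33 and lay on the S side of the classes, with 12 UMIs in S only and 2 in G2/M only cells of the WT-labelled library and 4 and 1 in the dKO-labelled library. *Ccnd2*, which encodes cyclin D2 of G1, was lower in class cells (−0.69 and −0.96), and so was *Cdkn1b*, the inhibitor p27 (−0.89 and −0.44).

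Among all 7557 other genes with enough UMIs, those highest in class cells by the smaller ratio of both libraries were *Cdca3* (5.80 and 6.53), *Hist1h2ae* (5.49 and 6.28), *Spc24*, *Cdca8*, *Tacc3*, *Cks1b*, *Asf1b*, *Hist1h1b*, *Kif15* and *Hist1h2bj*. *Hist1h2ae*, *Hist1h1b* and *Hist1h2bj* encode histones, *Asf1b* a histone chaperone and *Cks1b* a CDK subunit. Between the classes, over 600 genes, *H2afx* (2.38 and 3.30), *Hist1h1b* (2.09 and 2.76), *Tubb4b* (2.26 and 2.03), *Cks1b* (2.01 and 2.66) and *Hist1h2ae* (1.78 and 3.004) were the most shifted to G2/M only cells. *Hist1h1b* and *Hist1h2ae* belong to histone genes known to be transcribed in S phase, and with *Pclaf*, *Rrm2* and *Tk1* they go against the name of that class, which stands only for its counting rule. *Ranbp1* (−1.06 in each library) was the most shifted to S only cells.

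Genes of T cell state were taken from a list of known markers. Of 28 measured in conventional T cells, 18 in the WT-labelled library and 20 in the dKO-labelled library were lower in class cells with an interval that excluded 0, where 11.8% and 8.11% of all other genes with at least 20 UMIs were. *Il7r*, the interleukin 7 receptor of resting cells, had −1.72 and −1.68, *Ccr7*, the homing receptor of naive cells, −1.70 and −1.42, and the survival gene *Bcl2* −1.21 and −1.27. *Il17a* was 1 of the 2 genes per library that were higher with such an interval (0.47, 0.09 to 0.83, and 1.18, 0.95 to 1.40). The genes farthest down in both libraries, *Tdrp*, *Mmp9*, *Igfbp4*, *Prf1* and *Tcp11l2* first, had between 0 and 11 UMIs in class cells.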

How the data were processed

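Hepatic CD4+ T cells of WT and dKO mice were profiled with a 10x 5′ kit, with 1 pooled RNA library and 1 receptor library per genotype. The authors aligned reads to mm10 with Cell Ranger 7.0.1 and deposited UMI counts per gene and cell together with receptor contigs. Cells with more than 200 genes and less than 5% mitochondrial UMIs were kept (10556 of 10602 and 17462 of 17645). Gates needed sums of at least 2 (*Cd3d*, *Cd3e*, *Cd3g*), 3 (pDC) or 3 (myeloid) UMIs, with the leading sum at least 2 times the others. Cells with markers of more than 1 type (143 and 256) and ungated cells (1679 and 1733) were set aside. No doublet caller was run, and T cells with 2 or more TRB chains (134 and 45 conventional T cells, 16 and 33 Foxp3 cells) were left out as an alternative.

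Levels are summed UMIs per gate as CPM, with exact Poisson intervals. Ratios have conditional binomial intervals, shares Clopper-Pearson intervals and differences of shares Newcombe intervals, all at 95%. The floor for a count of 0 was 3 UMIs. Ratios were formed for genes with at least 50 UMIs over both sides, and past 2-fold was the rule of size. Phase classes used cells drawn to 1000 UMIs (seed 1). The rule for named genes took the 3 members at each end of a ratio between libraries and the 10 other genes at each end of a comparison of classes, beside *Mki67*, *Top2a*, *Pcna*, *Mcm5*, *Rrm2*, *Ccna2*, *Ccnb1*, *Cdc20*, *Stmn1* and *Tubb5*. Further genes were named after their values were seen. The members, lists and gates were chosen with earlier results of these data known. Alternatives were other draws and depths, other gates, clone definitions, TMM scaling and averaged single-cell CPM. A further gate tried after seeing the data is not reported here. Python 3.11.15, numpy 2.4.6, pandas 2.3.3, scipy 1.17.1, matplotlib 3.10.9 and, for TMM factors alone, edgeR 4.0.16 in R 4.3.3 were used, with functions tested on simulated data. Promoter windows were taken from RefSeq.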

Additional observations from a re-analysis of the deposited data

Results flagged for a closer look

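*Mcm3*, which encodes a subunit of the MCM helicase, had opposite directions in the 2 T cell gates. Its log2 ratio, dKO-labelled over WT-labelled library, was 0.46 in Foxp3 cells and −0.26 in conventional T cells, and both intervals excluded 0. Of all genes, 14.9% had an interval above 0 in Foxp3 cells and 28.2% one below 0 in conventional T cells. The share that met both was not computed. *Mcm3* was higher among conventional class cells (0.54, 0.09 to 0.99) and spanned 0 outside them (−0.18, −0.53 to 0.17). With averaged single-cell CPM it had 0.18 in Foxp3 cells and −0.53 in conventional T cells. With 1 library per genotype the difference between the gates was not tested.

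The share of cells in a phase class differed by 14.3 points between clones of 20 or more cells and single cells in the WT-labelled library, and by −3.80 points in the dKO-labelled library. The first value ranged from 4.87 points, without the largest clone, to 19.2 points over the settings tried. The interval of the second value spanned 0 (−7.25 to 0.20), that of its Foxp3 cells did not (−9.02 points, −14.8 to −1.96), and the pooled value ranged from −12.9 to 2.24 points over the settings tried, with intervals that lay below 0 in 4 of them. The difference between the libraries was not tested.

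Cells that no comparison used also carried the members. Among ungated cells 7.29% were in a phase class in the WT-labelled library and 2.78% in the dKO-labelled library, and among cells with markers of more than 1 type 8.33% and 6.50%. These shares lay above those of pDCs (0.678% and 0.563%).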

How the results depend on the processing

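Each of 14 results was computed again under 8 to 16 of 22 settings, 5 of these chosen after seeing the data. Of 170 values, 129 lay within the 95% interval of the reported value (for a count, within 1.5 times), 37 lay outside it and 4, marked as reversed, changed sign where the reported interval excluded 0. For the median log2 ratios the range used had the width of the interval of the summed members' ratio. That range was centred on the median and is no interval of the median itself. In all 10 values had another sign than the reported one, among them 3 of the difference in class share of pDCs (0.11 without thinning, 0.05 without *Hmgb2*, *Pcna*, *Dut* and *Tyms*, 0.03 in a second draw). In the following, F and C stand for the difference in class share, dKO-labelled minus WT-labelled library, of Foxp3 cells (−5.20 points) and conventional T cells (−4.29), and F over C for the excess of Foxp3 cells in the WT-labelled (3.07) and dKO-labelled (2.16) library.

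Drawing 2000 UMIs per cell gave F −1.57, C 3.35 (reversed) and F over C −0.35 (dKO-labelled, reversed), and the clone difference of that library was 2.24. Without thinning F was −11.0, C −9.00, F over C 7.69 and 5.72, and the change in G2/M only cells among Foxp3 class cells −3.92. With at least 4 members per class C was −3.29. Foxp3 cells with at least 2 *Foxp3* UMIs gave F over C of 6.97 and 4.06, a member median of −0.24 and 11 members past 2-fold. *Foxp3* sought in the thinned cell gave F over C of −1.92 (dKO-labelled, reversed). T cells with a paired receptor gave F −0.26 and F over C 4.997 (dKO-labelled). With 1 cell per clone F was −0.27, C 0.62 (reversed), F over C 7.47 and 6.58, G2/M only cells among conventional class cells 3.19 and the clone difference of the dKO-labelled library −12.9 (0 of 7 cells). By deposited clonotype that difference was 0.68, and without the largest clone that of the WT-labelled library was 4.87.

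The median log2 ratio of the members (−0.33 with 1 past 2-fold in conventional T cells, −0.37 with 6 in Foxp3 cells) was −0.27 with 0 past 2-fold and −0.33 with a *Cd3* sum of at least 4 UMIs, −0.29 with 0 and −0.28 with TMM, −0.90 with 17 and −0.71 with 13 with averaged single-cell CPM, and −0.26 with 0 and −0.10 with 3 without droplets of under 10% ribosomal protein UMIs. In conventional T cells it was −0.36 without *Ikzf2* or *Il2ra*. In Foxp3 cells without the largest clone it was −0.41. The cause of these shifts was not tested.

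No paired analysis was possible because each genotype has 1 library. The spread between mice, the depth of the cells and the genotype cannot be told apart. Counts of single members in Foxp3 cells of the WT-labelled library were low (10 UMIs of *Cdc6*, 9 of *Gins2*), which limits what can be said of them.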

Other observations

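Among conventional T cells of the WT-labelled library 377 had exactly 2 G2/M members and 88 exactly 3, against 322 and 60 in the dKO-labelled library, so that the class threshold lay where counts were falling.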
